A study of Mus musculus with 6 samples.

Results

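The genes described here are those of melanin synthesis in the stria vascularis and the transcription factors that drive them in pigment cells. They comprise the enzymes Tyr, Tyrp1 and Dct, the melanosome proteins Pmel and Mlana, the transport proteins Oca2, Slc45a2 and Slc24a5, and the transcription factors Mitf and Sox10. Every probe set that the platform annotation assigns to 1 of these 10 symbols was taken, whatever its signal. This gave 17 probe sets for 9 genes among the 45037 probe sets tested. Slc24a5 had no probe set of its own name in the annotation used here and was not analysed.

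RNA was obtained from stria vascularis microdissected from untreated adult mice of the 129S6 strain, at about 5 months of age. Wild-type (Slc26a4+/+) mice were compared with mutant (Slc26a4-/-) mice, which lack the anion exchanger pendrin throughout the body. Each genotype was measured on 3 Affymetrix arrays, and each array held a pool of 2 animals whose RNA had passed 2 rounds of amplification. The comparison asks which transcripts differ between the genotypes in a tissue that becomes hyperpigmented in the mutant. Breeding pairs of both genotypes came from an outside colony and were used to start a new colony. No source used here says that mutants and controls were littermates.

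Intermediate cells are the melanocyte-derived cells of the stria vascularis. They sit between the marginal and basal cell layers, carry the K+ channel Kcnj10 and are needed for the endocochlear potential. Tyrosinase, encoded by Tyr, begins melanin synthesis from tyrosine, Dct converts dopachrome, and Tyrp1 acts late in the making of eumelanin and stabilises tyrosinase. Melanin is laid down in melanosomes on fibrils of Pmel. In melanocytes Sox10 activates Mitf, and MITF binds short sequences with the core CATGTG, known as M-boxes, in promoters of the enzyme genes.

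The promoters of the 3 enzyme genes are shown because all 3 hold such a sequence close to the annotated start of transcription, whereas the array signals of the genes differed. The sequences are RefSeq sequences of the C57BL/6J reference, build GRCm38.p6, and not of the 129S6 mice that were measured. Each is written 5′ to 3′ on the strand of its gene, and the capitals mark the longest run around the core that the 3 promoters share.
Tyrp1, chr4:80834155-80834184, plus strand: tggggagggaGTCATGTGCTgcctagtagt
Tyr, chr7:87493516-87493545, minus strand: gaaaaagttaGTCATGTGCTttgcagaaga
Dct, chr14:118052379-118052408, minus strand: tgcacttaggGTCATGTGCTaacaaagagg
Counted from the start that the promoter table uses, the shared run began 48 bases upstream in Tyrp1, 23 bases in Tyr and 152 bases in Dct. For Tyrp1 the gene record of the same build begins further upstream, so that the run lies inside the gene as recorded. The 10 letters were read from these promoters. They occurred, on either strand, in 61 of 32851 promoter windows, each from 250 bases before to 50 bases after a start, a share of 0.186%. The longer AGTCATGTGCT, which contains them, was in the windows of Tyr and Tyrp1 but not in that of Dct, and in 7 windows in all, a share of 0.0213%. The plain core CATGTG, which lies within both, was in 14.2% of all windows and in 5 of the 8 windows held for 6 of the genes, those of Dct, Oca2, Slc24a5, Tyr and Tyrp1. The remaining 3 windows were those of Mitf. Pmel, Mlana, Slc45a2 and Sox10 had no entry in the table. A match is a description of the letters and not evidence of binding.

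Values are GCOS signals, the summarised brightness of the probes of a probe set on a linear scale, which the authors had scaled for each array. The mean signal per array lay between 666 and 725. Background was read on each array from 44 probe sets of olfactory receptors, at their 95th percentile, and lay at 199.7, 269.5 and 319.2 on the wild-type arrays and between 187 and 214 on the mutant arrays. Slc26a4 itself had signals of 1354, 1262 and 793 in wild type and 520.2, 717 and 618.5 in mutants, which differed by -0.85 on the log2 scale (SE 0.23, adjusted p = 0.119, limma). No source used here places its probe set relative to the deleted sequence, and its signal does not check the labels. Replicates correlated at 0.903 to 0.926 in wild type and at 0.944 to 0.950 in mutants over all probe sets. Kcnj10 had a mean signal of 17169 ± 1816 in wild type and 17005 ± 541 in mutants (SD, n = 3) and was far above background on all arrays. In a bulk sample of this kind, fewer cells of a type and less RNA per cell cannot be told apart.

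Of the 17 probe sets, 4 were higher in mutants and 0 were lower at an adjusted p below 0.05 (limma, Benjamini-Hochberg over all probe sets). Over all probe sets 1.19% were called higher and 0.54% were called lower. The 4 were all 3 probe sets of Tyrp1 and the single probe set of Pmel. Without adjustment 6 of the 17 had p below 0.05, as did 11.9% of all probe sets. In 5 of the 17 every mutant array lay above every wild-type array, as in 8.46% of all probe sets, and in 0 the reverse held, as in 9.4% of all probe sets. The count of 4 became 2 without the second or the third mutant array. The median log2 fold change was 0.21 over the 17 and -0.064 over all probe sets.

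**Figure D1:**
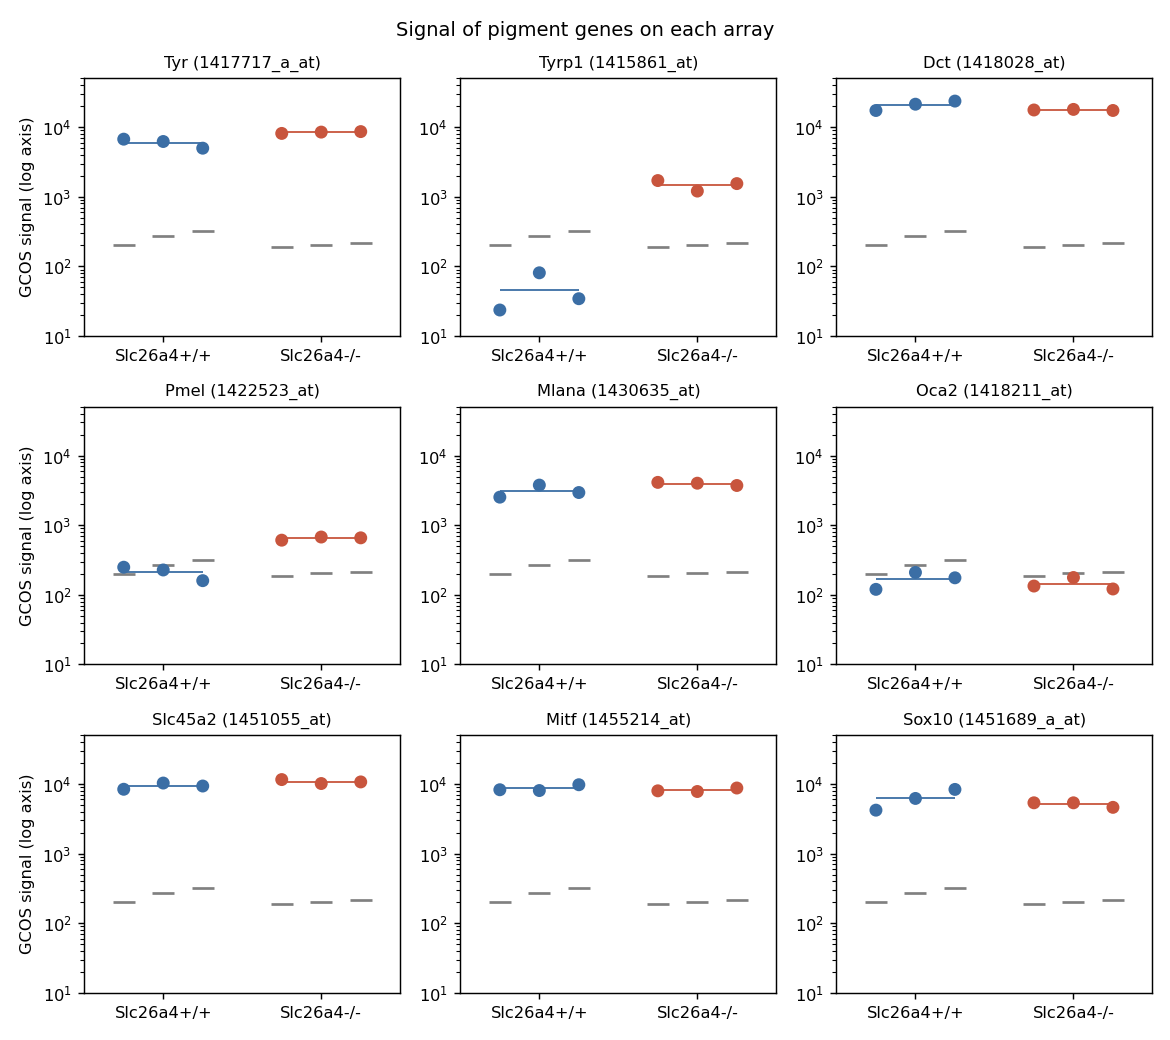
GCOS signal on a log axis of the 9 pigment genes on each array, 3 per genotype, for the probe set of highest mean log2 signal. Points are arrays, long lines are group means and short grey lines are the background of each array. Tyrp1 lay under background on all Slc26a4+/+ arrays and at 1206 to 1707 on the Slc26a4-/- arrays, while Oca2 lay under background throughout.

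Tyrp1 was higher in mutants with all of its probe sets. Its probe set 1439409_x_at had signals of 7.9, 23.5 and 11.2 on the wild-type arrays and 2437, 1873 and 2233 on the mutant arrays. The log2 fold change was 7.41 (SE 0.41, adjusted p = 3.2e-05, limma). Since all wild-type signals lay under background, the measured means allow only the statement that Tyrp1 was at least 8.40-fold higher in mutants. The suffix of this probe set marks probes that may also bind other transcripts, so the remaining probe sets are given as well. Probe set 1415861_at had signals of 23.6, 80.8 and 34.3 in wild type and 1707, 1206 and 1544 in mutants. It rose by 5.19 on the log2 scale (SE 0.41, adjusted p = 0.000276, limma), at least 5.70-fold above background. No array of 1 genotype came near those of the other. Probe set 1415862_at had signals of 138.6, 139.1 and 170.7 in wild type and 435.9, 288.5 and 354.3 in mutants. It rose by 1.25 on the log2 scale (SE 0.26, adjusted p = 0.0456, limma), at least 1.37-fold above background. The 3 probe sets had the same direction, and with wild-type levels under background their sizes cannot be set against each other. The call of 1415862_at held in 5 of 17 alternative settings, that of 1415861_at in 16 of 18 and that of 1439409_x_at in 17 of 18. Without the second wild-type array 1415862_at had an adjusted p of 0.138, and without 1 of the mutant arrays 0.123 to 0.275 (limma).

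Tyr, the rate-limiting enzyme, did not pass the test. Its probe set of highest signal, 1417717_a_at, had signals of 6709, 6210.2 and 4978 in wild type and 8114, 8475 and 8619 in mutants. The genotypes did not overlap, and the 3 mutant arrays lay close together. The log2 fold change was 0.50 (95% interval 0.17 to 0.84, adjusted p = 0.163, limma). It passed in 2 of 18 alternative settings, with array weights (0.46, adjusted p = 0.0151) and without the first wild-type array (0.60, adjusted p = 0.0410). The other probe sets overlapped between the genotypes. Probe set 1456095_at had signals of 4643, 3368 and 2791 in wild type and 4791, 3979.9 and 4172 in mutants (log2 fold change 0.29, adjusted p = 0.615, limma). Probe set 1448821_at had 1554, 750.3 and 921 in wild type and 934, 922 and 1051 in mutants (log2 fold change -0.082, adjusted p = 0.934, limma). All 3 probe sets of Tyr were above background on every array of both genotypes.

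Dct, the dopachrome tautomerase, was also strongly detected in both genotypes. Its signals were 17313, 21321 and 23638 in wild type and 17611, 17953 and 17327 in mutants. All mutant signals lay inside the range of wild type. The log2 fold change was -0.22 (95% interval -0.57 to 0.13, adjusted p = 0.642, limma) and it turned to 0.085 under quantile normalization. The interval leaves room for a fall of 0.57 on the log2 scale.

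The enzymes were also compared within each array, where the scaling of the array cancels. The log2 signal of Tyrp1 minus that of Tyr was -8.15, -6.26 and -7.18 on the wild-type arrays and -2.25, -2.81 and -2.48 on the mutant arrays, a change of 4.68. For Tyrp1 minus Dct the values were -9.52, -8.04 and -9.43 in wild type and -3.37, -3.90 and -3.49 in mutants, a change of 5.41. For Tyr minus Dct they were -1.37, -1.78 and -2.25 in wild type and -1.12, -1.08 and -1.01 in mutants, a change of 0.73. The wild-type values of this pair fell from the first to the third array, while the Gapdh 3′ to 5′ ratio given below rose. The Gapdh ratio is used here as a measure of RNA integrity, which does not cancel within an array. The actin ratio, also given below, was highest on the second wild-type array. The part of RNA integrity in this change was not tested. The genotypes did not overlap in any of the 3 pairs of enzymes. Each gave p = 0.1 in a two-sided exact permutation test and 0.1 after adjustment over the 3 pairs, the smallest p that 3 arrays against 3 allow. The changes that involve Tyrp1 rest on wild-type signals under background. No test at this size could pass the threshold, so the values are a description. They carry no information on which gene of a pair is expressed more.

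**Figure D2:**
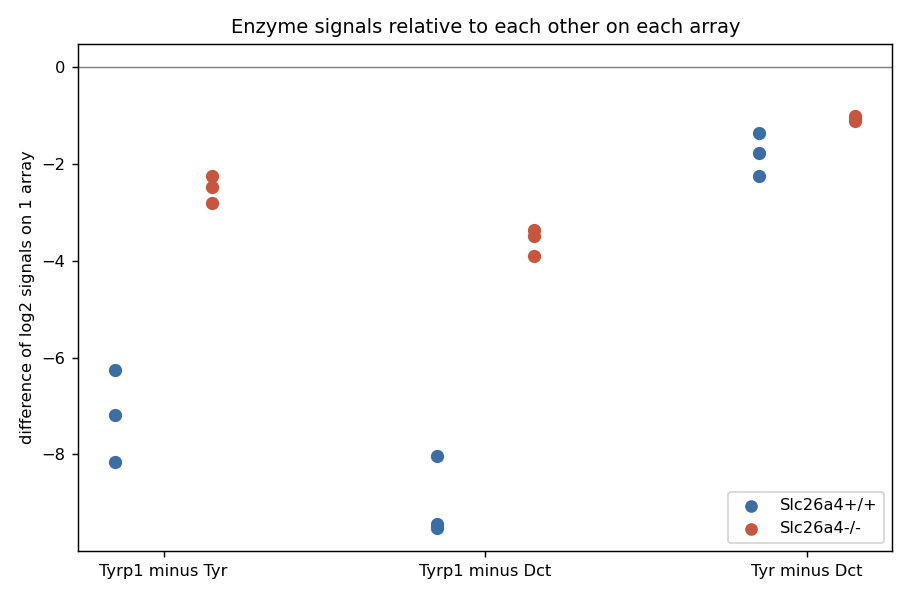
Difference of log2 GCOS signals between enzyme genes on the same array, with 1 point per array and 3 arrays per genotype. The 3 Slc26a4-/- arrays lay above the 3 Slc26a4+/+ arrays in each pair, by 4.68 for Tyrp1 minus Tyr, 5.41 for Tyrp1 minus Dct and 0.73 for Tyr minus Dct on average. For Tyr minus Dct the Slc26a4+/+ values fell as the Gapdh 3′ to 5′ ratio of the arrays rose. The actin ratio was highest on the second Slc26a4+/+ array.

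Pmel forms the fibrils on which melanin is deposited. Its probe set 1422523_at had signals of 249.1, 227.4 and 159.7 in wild type and 609.3, 676.1 and 658.3 in mutants. The genotypes were clearly apart, with 212 ± 46.6 in wild type and 648 ± 34.6 in mutants (SD, n = 3). Pmel rose by 1.64 on the log2 scale (SE 0.22, adjusted p = 0.00632, limma). Of the wild-type signals 1 lay above background and 2 under it, so the lower level was partly unmeasured. The adjusted p was 0.0521 without the second mutant array and 0.0571 without the third.

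Mlana, a small membrane protein of melanosomes that acts with Pmel, had signals of 2528, 3766 and 2946 in wild type and 4120.2, 4009 and 3717 in mutants. The groups overlapped through the second wild-type array. The log2 fold change was 0.38 (95% interval 0.013 to 0.74, adjusted p = 0.400, limma). Its unadjusted p was 0.0437.

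Of the transport proteins, Slc45a2 supports the pH of the melanosome. Its probe set 1451055_at had signals of 8411, 10329 and 9364 in wild type and 11590.1, 10170.5 and 10722 in mutants (log2 fold change 0.21, 95% interval -0.10 to 0.53, adjusted p = 0.621, limma). Its probe set 1437430_at had 3776, 4333 and 4555 in wild type and 3879.8, 4364 and 3823 in mutants (log2 fold change -0.068, adjusted p = 0.894, limma). The genotypes overlapped in both probe sets, and the signs were opposite. Oca2, an anion transport protein of the melanosome membrane, had signals of 119.8, 209.7 and 175.5 in wild type and 133.7, 177.2 and 121.3 in mutants. All 6 lay under the background of their arrays, so no fold is given.

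Mitf encodes the transcription factor that activates pigment genes. Its probe set 1455214_at had signals of 8279, 8064 and 9771 in wild type and 7988, 7811 and 8767 in mutants. The genotypes overlapped, and the third array was the highest of each. The log2 fold change was -0.085 (95% interval -0.39 to 0.23, adjusted p = 0.866, limma), with 0.044 under quantile normalization. Probe set 1422025_at had signals of 953, 1068 and 2072 in wild type and 1201, 936 and 1231 in mutants (log2 fold change -0.20, adjusted p = 0.833, limma). The third wild-type array was the highest in both probe sets.

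Sox10 is a transcription factor of neural crest cells, made by melanocytes and also by Schwann cells. Its probe set 1451689_a_at had signals of 4215, 6209 and 8369.5 in wild type and 5376, 5373 and 4626 in mutants, with all mutant arrays inside the wild-type range. The log2 fold change was -0.24 (95% interval -0.74 to 0.26, adjusted p = 0.750, limma). Probe set 1424985_a_at had signals of 604, 796 and 935 in wild type and 993, 792 and 749.9 in mutants (log2 fold change 0.13, adjusted p = 0.855, limma). The third probe set, 1425369_a_at, lay under background on all 6 arrays, with signals from 20.5 to 104.7.

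**Figure D3:**
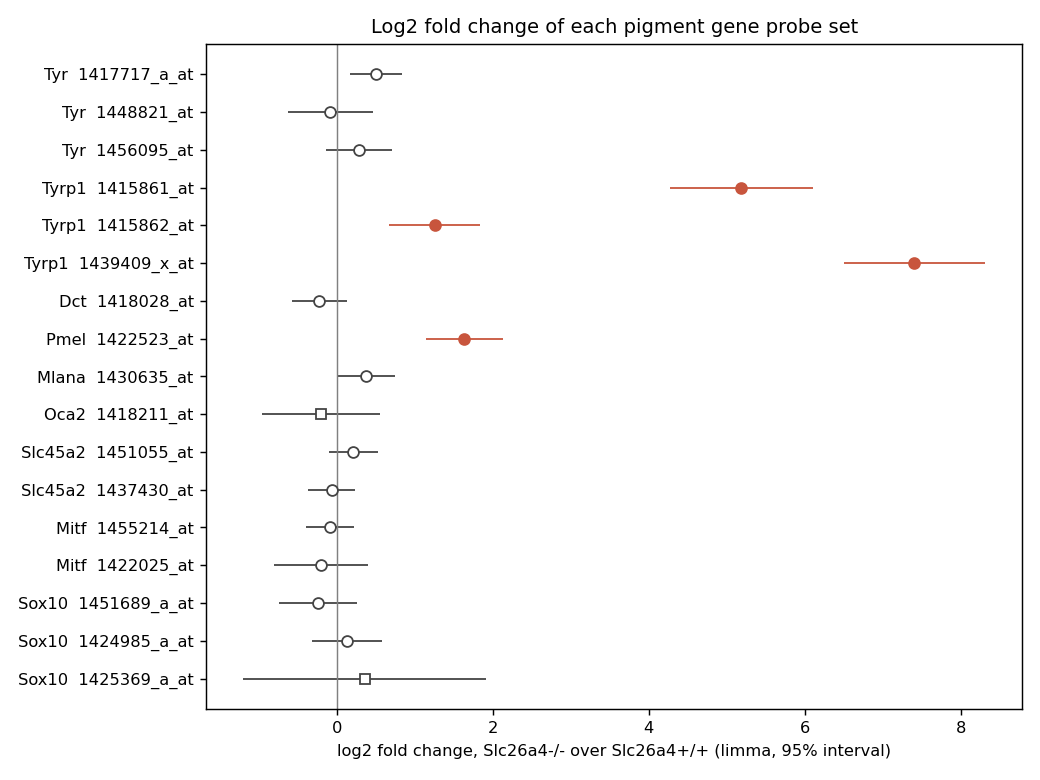
Log2 fold change, Slc26a4-/- over Slc26a4+/+, of each of the 17 probe sets with its 95% interval from limma (3 arrays per genotype). Filled points passed an adjusted p of 0.05, open points did not, and squares mark the 2 probe sets under background on all arrays. The 3 Tyrp1 probe sets (1.25 to 7.41) and Pmel (1.64) stood apart from the rest, which lay between -0.24 and 0.50, and the Tyrp1 estimates rest on Slc26a4+/+ signals under background.

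A measure of RNA integrity varied among the wild-type arrays. This was the 3′ signal of the Gapdh control probe sets over their 5′ signal, a ratio that grows as transcripts are shortened. It was 2.25, 7.19 and 10.5 on the wild-type arrays and 3.70, 3.80 and 3.34 on the mutant arrays. Whether it varied with the RNA as isolated or with the 2 rounds of amplification was not tested. The wild-type array with the highest ratio had the highest signals of Dct, Sox10 (1451689_a_at) and Mitf (1422025_at) and the lowest of Tyr (1417717_a_at) and Pmel of its genotype. The array with the lowest ratio had the reverse in these 5 probe sets. The same ratio for actin was 1.91, 4.10 and 3.88 on the wild-type arrays and 2.25, 2.15 and 1.78 on the mutant arrays. By actin the second wild-type array was the highest, so the Gapdh and actin ratios ordered these arrays differently. Over the 3 wild-type arrays, 10 of the 17 probe sets followed the order of the Gapdh ratio in one direction or the other, against 47.0% of all probe sets. Of these, Tyrp1 1415862_at and Sox10 1425369_a_at lay under background on all wild-type arrays. Probe sets that did not follow it include Tyrp1 1415861_at, Mlana, Slc45a2 1451055_at and Mitf 1455214_at. The Gapdh ratio was also used as a covariate, an alternative chosen after seeing the data. Tyrp1 1439409_x_at then gave a log2 fold change of 7.65 (adjusted p = 0.000119, limma) and Pmel 1.49 (adjusted p = 0.00750, limma). The estimates became 0.40 for Tyr 1417717_a_at, -0.10 for Dct and 0.026 for Sox10 1451689_a_at, and these 3 did not pass. The count of probe sets higher in mutants was again 4.

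**Figure D4:**
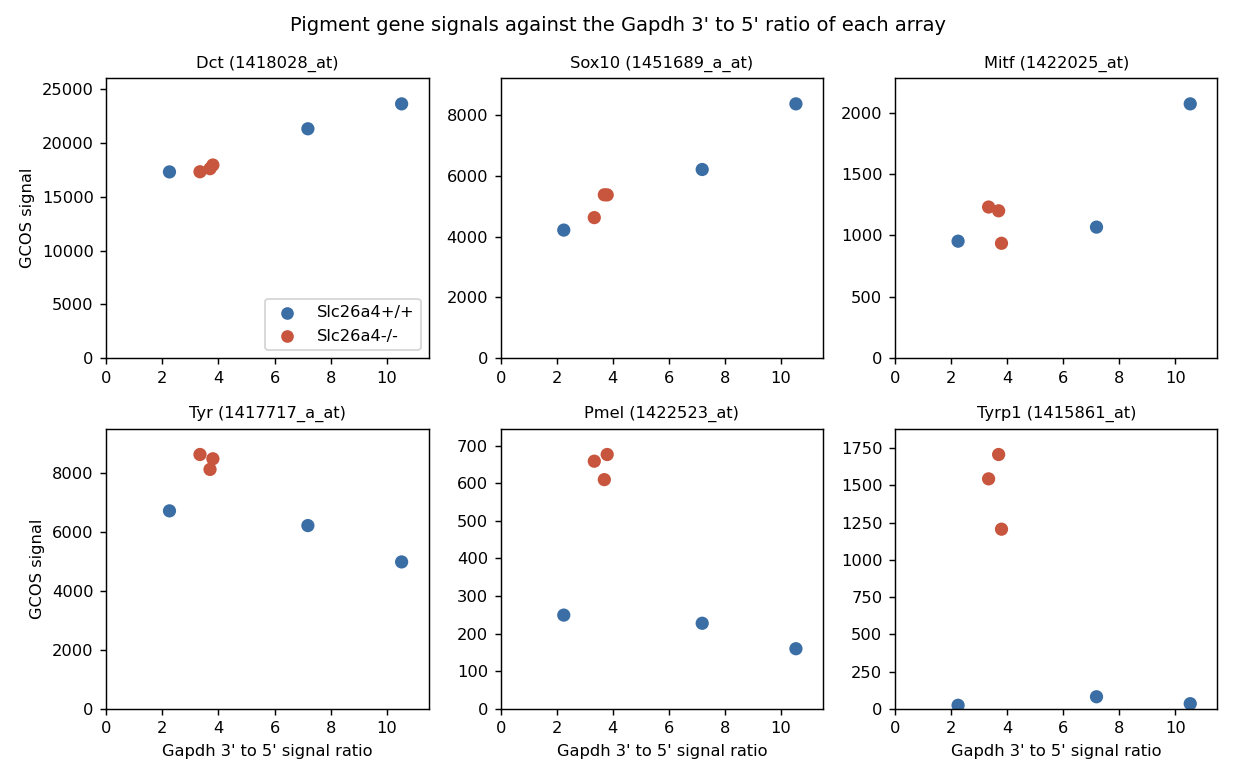
GCOS signal of 6 probe sets of pigment genes against the Gapdh 3′ to 5′ signal ratio of the array, with 1 point per array and 3 arrays per genotype. Mitf is shown by 1422025_at, which followed the order of the ratio on the Slc26a4+/+ arrays. Its probe set of highest signal, 1455214_at, did not follow it and is not shown. The other genes are shown by their probe set of highest mean log2 signal. The Slc26a4+/+ arrays spanned ratios of 2.25 to 10.5 and the Slc26a4-/- arrays 3.34 to 3.80. The genotypes lay apart for Tyrp1, Pmel and Tyr and overlapped for Dct, Sox10 and Mitf.

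Further genes of pigment cells were counted by list, each gene represented by the probe set of highest mean log2 signal. Over all genes 1.88% were called higher and 0.803% lower, 2.68% in all. Of 20 other genes of melanosomes or MITF targets, 4 were higher in mutants and 0 were lower, with a median log2 fold change of 0.41 against -0.031 for all genes. These were Trpm1, Gpnmb, Myo5a and Lyst. Trpm1, a cation channel first found in melanocytes, had 188.9, 203.7 and 243.7 in wild type, all under background, and 730.5, 698.4 and 819.1 in mutants. It was at least 2.90-fold higher (adjusted p = 0.0016, limma). Gpnmb, a melanosome glycoprotein related to Pmel that macrophages also make, had 4860 in the first wild-type array, 4509 in the second and 2909 in the third, and 9996, 9295 and 9173 in mutants. It rose by 1.25 on the log2 scale (adjusted p = 0.0114, limma).

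The other members of this list that passed concern the movement and making of organelles. Myo5a, the myosin that carries melanosomes to the cell edge, had 2099.8, 1893 and 1138 in wild type and 3247, 3714 and 3707 in mutants (log2 fold change 1.10, adjusted p = 0.0358, limma). Lyst, which controls the size of lysosome-related organelles, had 788.5, 490.8 and 506 in wild type and 1213, 1085 and 1099.8 in mutants (log2 fold change 0.96, adjusted p = 0.0481, limma). In both genes the genotypes did not overlap. Rab38, a small GTPase that brings Tyr and Tyrp1 to melanosomes, missed the threshold with its probe set of highest signal (1.20, adjusted p = 0.0522, limma) and passed it with 1417700_at, at 563.4, 534.7 and 496.2 in wild type against 2352, 1554 and 1856 in mutants (1.83, adjusted p = 0.000937, limma). Without any 1 of the mutant arrays the count of genes called was 1, while the share called over all genes fell from 2.68% to between 0.742% and 0.885%.

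Of 19 genes of melanocyte signalling and transcription that could be named, 0 passed in either direction in limma, and 4 had an unadjusted p below 0.05, all higher in mutants, where 8.48% of all genes were higher at that p. Their median log2 fold change was 0.10. Asip had no probe set of its own name. The smallest p belonged to Ednrb, the endothelin receptor of melanocyte precursors, with 4316, 4205 and 3367 in wild type and 6009, 5853 and 5785 in mutants (0.58, adjusted p = 0.0864, limma). Kitl, the ligand of the receptor Kit, had 1080.1, 785.2 and 287.5 in wild type and 1894, 1914 and 1478 in mutants (1.49, adjusted p = 0.124, limma). Zeb2, a transcription factor of the melanocyte lineage, had 744.4, 719.7 and 697.5 in wild type and 1019, 1001 and 1024 in mutants (0.49, adjusted p = 0.149, limma). In these 3 genes the genotypes did not overlap, although none passed. A further probe set of Bcl2 (1.19, adjusted p = 0.0355, limma) and of Pax3 (0.86, adjusted p = 0.0434, limma) passed upward where the one standing for the gene did not. Leaving out the first wild-type array brought the count of genes called to 2, with 5.59% of all genes called.

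Genes of intermediate cells outside pigment synthesis were a mixed group. Of 8 genes, 2 were higher and 0 were lower, with a median of 0.20. Ednrb, Kit and Pax3 are also counted among the signalling genes above, and Met among the melanosome genes. Kit lay under background on all arrays. Cd44, a hyaluronan receptor that macrophages also carry, had 2092, 2519 and 3063 in wild type and 4665, 4532 and 5013 in mutants (0.91, adjusted p = 0.0217, limma). Nrp2, a semaphorin receptor, had 3611, 3190.5 and 3325 in wild type and 5297.5, 4864 and 5614 in mutants (0.64, adjusted p = 0.0422, limma). Both calls were lost, with a count of 0, when the second wild-type array or any 1 of the mutant arrays was left out, settings in which 0.742% to 1.3% of all genes were called. The K+ channel genes Kcnj10 and Kcnj13 had log2 fold changes of -0.0087 (95% interval -0.33 to 0.31) and 0.014 (95% interval -0.36 to 0.39).

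**Figure D5:**
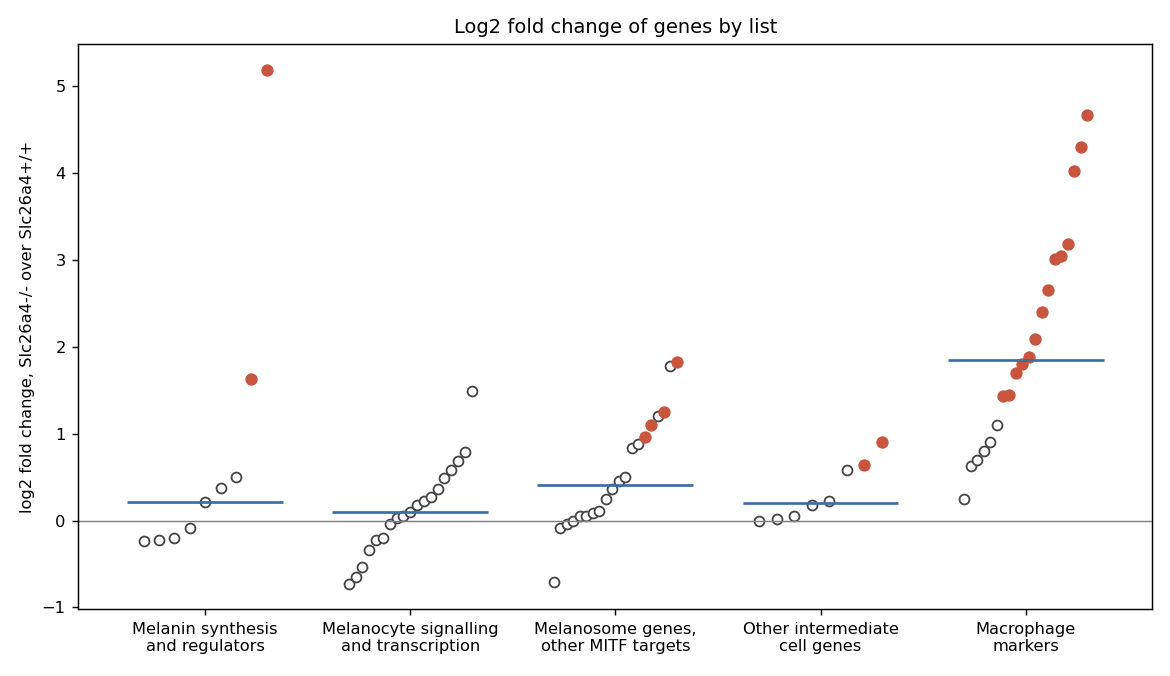
Log2 fold change, Slc26a4-/- over Slc26a4+/+, of each gene in 5 lists, with 1 point per gene in order of size and 3 arrays per genotype. Filled points passed an adjusted p of 0.05 in limma, open points did not, and lines are list medians. Of the pigment genes 2 of 9 passed, of the signalling genes 0 of 19 and of the macrophage markers 14 of 20.

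Markers of some other cell types moved with the genotype. Of 20 macrophage markers 14 were higher and 0 were lower, with a median log2 fold change of 1.84. Their summed signal was 10223 to 13948 in wild type and 62423 to 63410 in mutants. Lyz2, a lysozyme of macrophages, rose by 4.30 on the log2 scale and the complement gene C1qc by 3.19. Lgals3, a galectin under background on the wild-type arrays, was at least 14.1-fold higher in mutants. No marker was at 0, but Cd163, Fcgr1 and Itgam lay under background on all arrays. Macrophages can take up pigment and make Mitf and Gpnmb. The part of this signal in the values of Tyrp1, Pmel, Gpnmb and the other genes above was not tested.

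Of 10 markers of spiral ligament fibrocytes, the cells of the neighbouring lateral wall, 5 were higher, and their summed signal was 9227 to 13629 in wild type and 15755 to 17358 in mutants. Chad, Dcn and Ucma had the smallest p of these. Otos (1.89, adjusted p = 0.00276, limma) and Col1a2 (1.04, adjusted p = 0.0213, limma) also passed. Over all genes 1.88% were called higher. The remaining 5 markers did not pass. On the log2 scale Coch, Lum and Tbx18 were at 0.17, 0.21 and 0.27, and Pou3f4 and Col1a1 at -0.75 and -0.59. Of 7 Schwann cell markers that could be named, Pmp22 was higher (0.77, adjusted p = 0.0171, limma), and the summed signal was 22491 to 26553 and 26857 to 28152. This list bears on Sox10, which overlapped between the genotypes. All 8 marginal cell markers had negative log2 fold changes (median -0.50), with 7 at an unadjusted p below 0.05. Past the threshold 2 were lower, Kcne1 (-1.27, adjusted p = 0.00237, limma) and Atp13a5 (-1.21, adjusted p = 0.00837, limma), and a further probe set of Esrrb was lower (-1.06, adjusted p = 0.00788, limma). Of the 4 basal cell, 5 endothelial and 3 red blood cell markers 0 passed in limma, and unadjusted p was below 0.05 for 1, 1 and 2 of them. The summed signals were 21513 to 25331 in wild type and 22113 to 23337 in mutants for basal cells, 1278 to 1801 and 2259.7 to 2474.5 for endothelium, and 679 to 1791 and 381 to 676 for red blood cells. Their part in the pigment gene values was not tested.

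The sex of the pools moved with the genotype. Xist, which is transcribed from the inactive X chromosome of females, had signals of 771, 3358 and 1022 in wild type and 5634, 5529.6 and 5863 in mutants. Of the Y-linked genes Eif2s3y, Uty and Kdm5d were lower in mutants and under background on all mutant arrays. Eif2s3y had 1541, 640 and 805 in wild type, and Uty 697, 377 and 703. These 2 genes, and Xist too, lay above background on every wild-type array. Xist did not overlap between the groups, so sex and genotype cannot be told apart with these arrays. With log2 Xist signal as a covariate, Tyrp1 1439409_x_at gave 5.97 (adjusted p = 0.0145, limma), Tyrp1 1415861_at 3.55 (adjusted p = 0.0628, limma) and Pmel 1.55 (adjusted p = 0.405, limma).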

How the data were processed

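RNA of stria vascularis was measured on 6 Affymetrix mouse gene chips, and arrays were assigned to genotype by the labels. The deposited values are intensities, GCOS signals on a linear scale that the authors background-corrected and scaled per array. The sources used here give neither the version of GCOS nor the scaling target. The 64 Affymetrix control probe sets were left out. Of 45037 probe sets, 34945 carried 1 gene symbol and could be named, whereas 932 carried several symbols and 9160 none in the annotation used.

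The 172 signals under 1 were raised to 1. The genotypes were compared on log2 signals by lmFit and eBayes (trended) of limma 3.58.1, run under R 4.3.3, two-sided, with Benjamini-Hochberg adjustment over all probe sets and a threshold of 0.05. Genes outside the pigment genes were represented by the probe set of highest mean log2 signal. A fold against a genotype under background on all arrays was computed against the background, a percentile (95) over 44 probe sets of olfactory receptors, or against the signal where that was higher. The number of arrays limits the precision, and p-values measure the spread between pools of animals. No source used here gives the place of each probe set on its transcript.

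All pigment probe sets were named. From the other pigment cell lists, the 3 genes with the smallest p and every gene past the threshold were named, and up to 3 from each list of cell type markers. Rab38, Kcnj10, Kcnj13, Cd163, Fcgr1, Itgam, Bcl2, Pax3, Esrrb and Xist were chosen after their values were seen. So were Kit, Met, Otos, Col1a2, Coch, Lum, Tbx18, Pou3f4 and Col1a1. The pigment genes, lists and tests were chosen with earlier results of these data known. Alternatives changed the scaling, the pseudocount, the filter on low signals, the variance model, the covariates, the pairing and the arrays included.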

Additional observations from a re-analysis of the deposited data

How the results depend on the processing

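Of the settings tried, 13 of 18 kept the count of pigment probe sets higher in Slc26a4-/- within 1.5 times of 4, and all 18 kept the count of lower ones at 0. The count was 2 without the trend, 1 with Xist as a covariate and 0 in a paired t-test by array number. That test called 0 of 45037 probe sets (3980 at an unadjusted p below 0.05). The authors state paired t-tests for their study but do not tie the arrays into pairs. It was 2 to 5 when 1 array was left out, with 2 without the second or the third Slc26a4-/- array. The signalling genes called were 1 with quantile normalization, with a mean signal of at least 300, with the replicate block and with the Gapdh ratio as a covariate, 3 with array weights, and 0 to 2 when 1 array was left out. The melanosome genes called were 1 with median centring or without the trend, 2 with centring on the 75th percentile, 7 with array weights, 0 in the paired t-test and with Xist, and 1 to 6 when 1 array was left out. The intermediate cell genes called were 1 under either centring and the replicate block, 0 without the trend, in the paired t-test and with Xist, and 0 to 3 when 1 array was left out. The macrophage markers called were 9 without the trend, 0 in the paired t-test, 3 with Xist and 12 to 16 when 1 array was left out. The genes called over all moved too: 2.68% as reported, 1.52% with median centring, 2.43% with centring on the 75th percentile, 0.363% without the trend, 12.0% with array weights, 0.077% with Xist and 0.742% to 5.59% when 1 array was left out. The counts of a list are therefore no measure of a change in its genes alone, and the cause was not tested.

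Directions turned only for genes that did not pass. Tyr was at -0.082 with its probe set 1448821_at, Dct at 0.085 with quantile normalization, Mlana at -0.13 with Xist, and Slc45a2 at -0.039 with Xist and -0.068 with probe set 1437430_at. Mitf was at 0.044 with quantile normalization, 0.0026 with array weights, 0.032 with Xist and, when 1 array was left out, -0.14 to 0.0014, the latter without the third Slc26a4+/+ array. Sox10 was at 0.026 with the Gapdh ratio and at 0.13 and 0.36 with the probe sets 1424985_a_at and 1425369_a_at. Pmel lost its call without the trend (adjusted p = 0.0914, limma), and Tyrp1 1415861_at and Pmel lost theirs in the paired t-test and with Xist as a covariate. The Xist covariate follows the genotype, since its signals do not overlap between the groups. Arrays of the same number deviated together with correlations of 0.0939, 0.0267 and 0.0287 over all probe sets, so the numbers were not taken as pairs, and with the replicate block 3 pigment probe sets were called. The 3 enzyme differences kept their direction under all 8 alternatives, none of which could pass the threshold. The signal over background limits Tyrp1, Trpm1 and Oca2 to bounds or to no fold.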

Other observations

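The genes around Tyrp1 were looked at after its values were seen. In the gene table of GRCm38.p6, 8 other genes with a probe set of 1 symbol lay within 2 Mb of Tyrp1, and 1 of them, Lurap1l, passed the threshold (log2 fold change 0.84, adjusted p = 0.0286, limma). The 8 log2 fold changes lay between -0.26 and 0.84. Over all genes 2.68% passed in either direction.

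With background set at percentile 90 or 99 of the receptor probe sets in place of 95, Tyrp1 1415861_at and 1439409_x_at lay under background on all Slc26a4+/+ arrays. Pmel lay above percentile 90 on 2 of the 3 Slc26a4+/+ arrays and above percentile 99 on 1. Trpm1 lay above percentile 90 on 1 of the 3 Slc26a4+/+ arrays and above percentile 99 on 0. Its bound of 2.90-fold therefore holds for percentile 95.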
